A study of Homo sapiens with 9 samples.

Results

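The genes described here are PARP1, PARP2, PARP3, PARG, XRCC1, LIG3, POLB, APEX1 and TDP1, which encode PARP enzymes and core proteins of DNA single-strand break repair. They were chosen by name among the 58735 genes of the deposited count table, which lists all 9 of them, and all 9 passed the filter on low counts that left 16350 genes for testing. The RNA came from SKOV3, a line of ovarian cancer cells that the study used as a model of PARP inhibitor resistance. There were 3 groups of 3 libraries: cells expressing WT CDK9, cells expressing WT CDK9 and treated with an ALK inhibitor for 24 h (Ai), and cells expressing Tyr19Phe CDK9 (Y19F), in which tyrosine 19 cannot be phosphorylated. CDK9 is the kinase that releases RNA polymerase II into elongation, and the study asked whether its phosphorylation by ALK alters the transcription of DNA repair genes. Elsewhere the study describes stable lines in which tagged CDK9 was put back after depletion of the cells' own CDK9, and for these libraries it names only the CDK9 expressed, does not say whether a line was 1 clone or a pool, and gives no inhibitor name or dose.

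Single-strand breaks arise from oxidation, from base excision repair and from stalled topoisomerase 1. PARP1 and PARP2 bind the break and build chains of poly(ADP-ribose) from NAD, PARG removes the chains, and XRCC1 is the scaffold that the chains recruit together with its partner ligase LIG3. APEX1 cuts DNA at abasic sites, POLB fills the gap and TDP1 releases topoisomerase 1 from DNA ends. PARP inhibitors block the building of the chains and hold PARP1 on DNA, so PARP1 is one of the proteins on which they act.

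Total counts ranged from 18169050 to 20974903 in the 6 libraries with WT CDK9 and from 26485891 to 29320184 in the Tyr19Phe CDK9 libraries, so depth and the Tyr19Phe group cannot be told apart. The cells held epithelial and ovarian markers (KRT7, KRT8, KRT18, KRT19, EPCAM, PAX8 and ERBB2), whereas the epithelial cadherin CDH1 had 1 to 18 counts. The 8 markers of blood, vessel and liver cells summed to 0.31 to 1.54 CPM (each library set to 1000000 counts, scaled by edgeR's TMM method). CDK9 itself was at 48.5 ± 1.03 CPM in WT CDK9 cells, 45.5 ± 1.76 CPM after the inhibitor and 54.9 ± 3.94 CPM in Tyr19Phe CDK9 cells (mean ± SD, n = 3), and ALK had 0 to 5 counts per library. The counts do not separate the introduced from the cells' own CDK9. The Ai replicate 2 and Y19F replicate 3 libraries detected 19944 and 20635 genes, fewer than the other 7 libraries, each with at least 21241. Nothing in the labels says that the 3 libraries of a group came from separate cultures, so the p-values measure the spread between these libraries, which may be technical.

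Positions are those of the deposited table (hg38). PARP1 is on chromosome 1 (226360691 to 226408079, minus strand), PARP3 on chromosome 3 (51942345 to 51948867), PARG on chromosome 10 (49818279 to 49970203, minus strand), LIG3 on chromosome 17 (34980494 to 35009743) and XRCC1 on chromosome 19 (43543040 to 43580473, minus strand). Chromosome 14 holds PARP2 (20343582 to 20357905), APEX1 (20455191 to 20457772) and TDP1 (89954939 to 90044768). The end of PARP2 lies 97286 bases before the start of APEX1, so these repair genes are close neighbours on the same strand. Both of them start back to back with another gene, APEX1 at 86 bases from OSGEP, an enzyme of tRNA modification, and PARP2 beside RPPH1, the RNA of RNase P.

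Bases ahead of 3 genes are shown from RefSeq (GRCh38.p14): for PARP1 because it is the only one of the 9 that passed a test, and for PARP2 and APEX1 because the whole interval between each and its back-to-back neighbour fits in the window. The PARP1 stretch is chr1:226408094-226408343 on the minus strand, the PARP2 stretch is chr14:20343408-20343581 and the APEX1 stretch is chr14:20455106-20455190, both on the plus strand. Capitals mark matches on either strand to the GC box GGGCGG, the CCAAT box CCAAT, the E box CACGTG, the TATA box TATAAA, the octamer ATGCAAAT or the cyclic AMP response element TGACGTCA.
PARP1: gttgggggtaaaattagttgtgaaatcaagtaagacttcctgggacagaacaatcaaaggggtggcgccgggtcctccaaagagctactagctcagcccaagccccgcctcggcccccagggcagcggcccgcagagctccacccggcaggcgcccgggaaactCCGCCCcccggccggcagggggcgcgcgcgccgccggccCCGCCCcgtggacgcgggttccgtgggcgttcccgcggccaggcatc
PARP2: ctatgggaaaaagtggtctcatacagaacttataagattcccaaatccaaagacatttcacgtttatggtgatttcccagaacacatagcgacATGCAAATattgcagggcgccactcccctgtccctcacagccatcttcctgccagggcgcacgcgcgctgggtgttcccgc
APEX1: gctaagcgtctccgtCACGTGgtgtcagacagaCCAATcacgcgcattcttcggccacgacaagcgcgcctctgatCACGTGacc

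The PARP1 stretch held 2 GC boxes and 70.4% G and C, the PARP2 stretch 1 octamer and 51.1% G and C, and the APEX1 stretch 2 E boxes, 1 CCAAT box and 60% G and C. RefSeq promoters were matched for 8 of the 9 genes, all but POLB. In the 250 bases before the RefSeq start, a GC box was found in 4 of the 8 (PARP1, PARP2, XRCC1 and LIG3) and in 42.3% of all 27305 promoters, and an E box in 2 (LIG3 and APEX1) and in 6.49% of all promoters. A CCAAT box was found in 3 (PARG, XRCC1 and APEX1) against 33.0% of all promoters, and a TATA box in 0 against 11.1%. PARP2 alone of the 8 held the octamer and the cyclic AMP response element, present in 1.66% and 1.77% of all promoters. The GC box and the cyclic AMP response element of PARP2 lie outside the stretch printed above. That stretch is the 174 bases between RPPH1 and the PARP2 start of the deposited table, while the 250 bases run to the RefSeq start at 20343635. These are matches of letters in a window and not mapped binding sites. No one of these strings was found in all 8.

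Per kilobase of gene length, APEX1 was the most abundant of the 9 genes and PARP1 the next. APEX1 had a mean of 74.5 CPM per kb over the 9 libraries (range 70.1 to 78.5) and PARP1 40.3 (36.7 to 42.8), and the ranges did not overlap each other or any other gene's. A middle group held PARP2 at 9.76, the scaffold XRCC1 at 9.43 and PARG at 8.55 CPM per kb. PARP2 was above XRCC1 in 7 of 9 libraries and XRCC1 above PARG in 8 of 9, and the ranges of these neighbours overlapped. PARP3, a PARP that adds single ADP-ribose units, was at 6.18, TDP1 at 4.95, POLB at 3.66 and LIG3 at 3.65 CPM per kb. POLB and LIG3 could not be ordered, since POLB was the higher in 5 of 9 libraries. Among the summed levels per kb of the 3 PARPs, PARP1 made up 68.7% to 74.4%, PARP2 15.2% to 18.8% and PARP3 9.36% to 12.8%. By this measure XRCC1 was above its partner ligase in every library, with LIG3 at 0.338 to 0.486 of the XRCC1 level per kb. In CPM not divided by length the order was the reverse, with LIG3 at 44.2 to 55.8 and XRCC1 at 30.7 to 35.1. PARP1 was likewise above APEX1 in CPM. The order per kb thus depends on the deposited gene lengths, 12919 bases for LIG3 and 3459 for XRCC1. Whether these match the transcripts expressed was not tested.

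**Figure D1:**
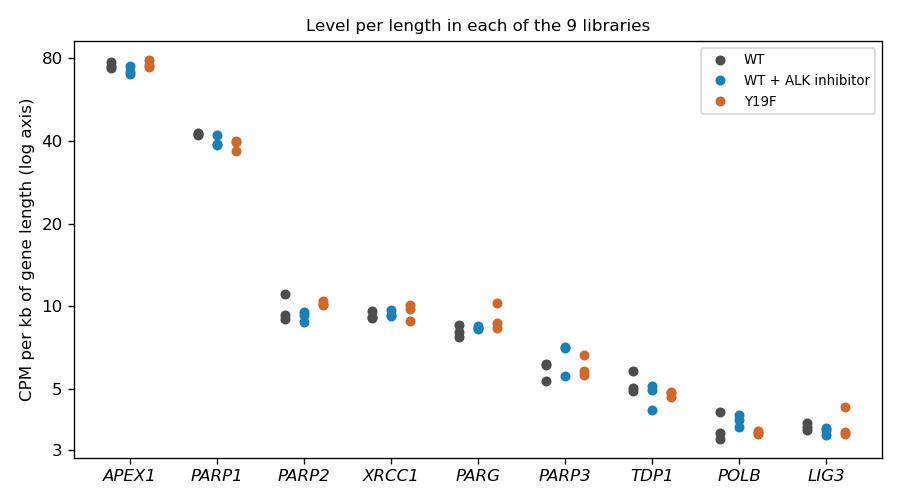
CPM per kilobase of gene length (log axis) of the 9 genes in each of the 9 libraries, coloured by group, with genes ordered by their mean. APEX1 and PARP1 stand apart at means of 74.5 and 40.3, and the other 7 genes lie between 3.31 and 11.1.

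PARP1 was the only one of the 9 genes to pass a test, with a small decrease in Tyr19Phe CDK9 cells. It was at 303, 302 and 307 CPM in the WT CDK9 libraries, at 279, 299 and 277 CPM after the ALK inhibitor, and at 263, 286 and 285 CPM in Tyr19Phe CDK9 cells. All 6 libraries of the other groups were below all 3 WT CDK9 libraries, which lay closer together (SD 2.77 CPM, against 12.4 and 12.6), with a coefficient of variation of 0.91% against 1.31% from counting. In Tyr19Phe CDK9 cells PARP1 fell by 0.13 on the log2 scale (SE 0.04, 95% interval -0.22 to -0.04, a change of -8.51%), with an adjusted p of 0.0368 by edgeR's quasi-likelihood test. After the ALK inhibitor its log2 fold change was -0.09 (SE 0.04, interval -0.18 to 0.00), with an unadjusted p of 0.0442 and an edgeR adjusted p of 0.313, which does not pass. The WT CDK9 libraries are shared by these comparisons. Set against each other, Tyr19Phe CDK9 cells and ALK inhibitor-treated cells overlapped in PARP1, with a log2 difference of -0.04 (interval -0.13 to 0.05, edgeR adjusted p = 0.624). In RNA of whole cultures, fewer cells with PARP1 and less PARP1 RNA per cell cannot be told apart. These are RNA levels and not protein. From western blots the paper reports lower homologous recombination proteins with the ALK inhibitor and with Tyr19Phe CDK9, and no such reduction of PARP protein.

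The PARP1 call was close to its threshold. It passed in 8 of 17 alternative analyses, with log2 fold changes from -0.14 to -0.09, and was lower in all 17. Among the 17, an adjusted p under 0.01 and an unadjusted p under 0.05 only change the threshold of the main fit. Their outcome and direction follow from that fit. Leaving out 1 library at a time, it kept the call without Y19F replicate 2 (edgeR adjusted p = 0.0385) and lost it without any of the other 5 libraries, with edgeR adjusted p-values from 0.0533 without Y19F replicate 3 to 0.212 without Y19F replicate 1, whose 263 CPM was the lowest of all. In the comparison of Tyr19Phe with WT CDK9 cells, 18.0% of all tested genes were called, 10.4% as lower and 7.61% as higher, and 61.9% of tested genes had a larger absolute log2 fold change than PARP1. PARP1 had the most counts of the 9 genes, 5367 to 8033 per library.

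The 3 tested genes whose pattern over the 9 libraries was most like that of PARP1 were ZNF318, a zinc finger protein, SLTM, an RNA-binding transcription modulator, and SRP68, a protein of the signal recognition particle. Their root mean square differences from PARP1, on centred log2 CPM, were 0.0245, 0.028 and 0.0344 over 16349 genes compared. In Tyr19Phe against WT CDK9 cells SLTM had a log2 fold change of -0.15 (edgeR adjusted p = 0.0628), SRP68 -0.14 (0.0692) and ZNF318 -0.11 (0.192). None of the 3 passed the threshold that PARP1 just passed. They were chosen for their likeness to PARP1 in these same libraries, so fold changes near that of PARP1 follow from the choice.

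**Figure D2:**
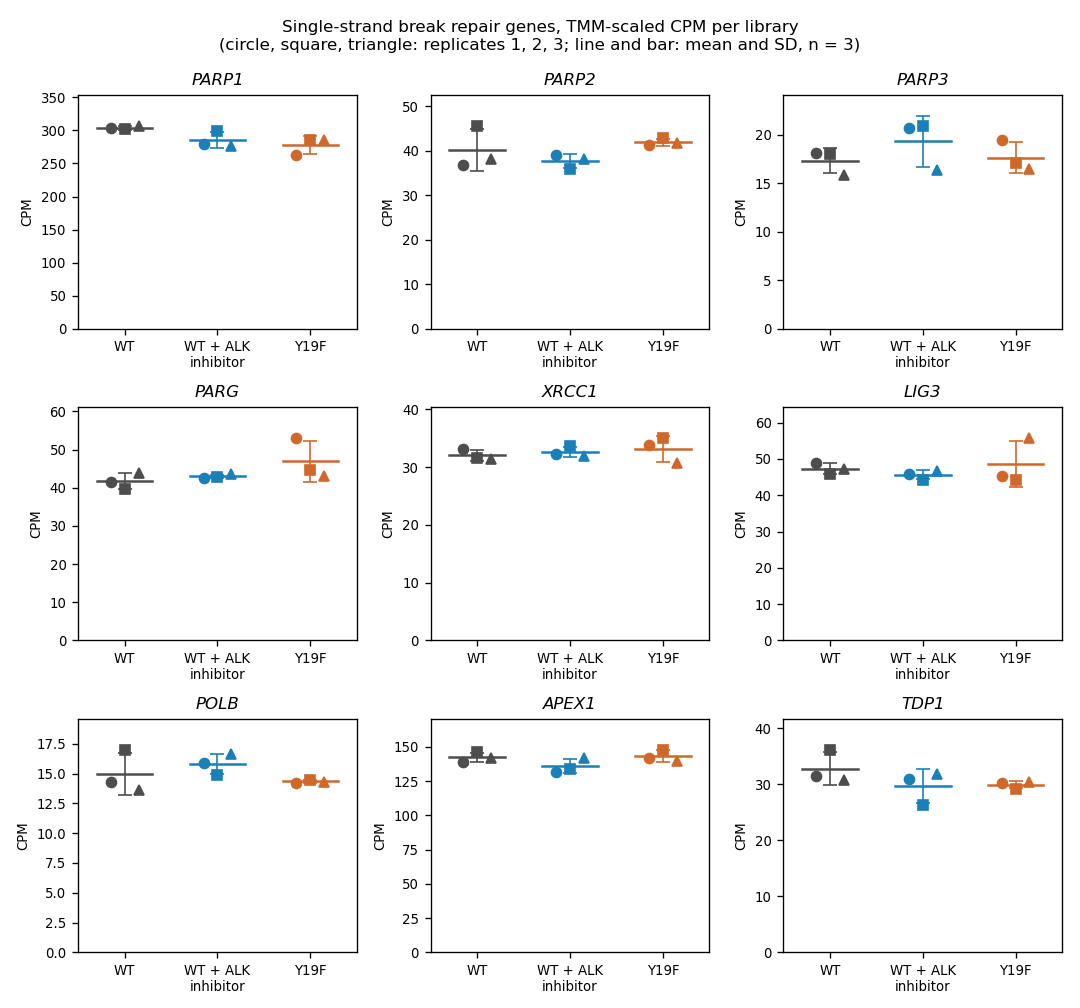
CPM (TMM-scaled, axes from 0) of the 9 genes in each library, with circle, square and triangle for replicates 1, 2 and 3, and the mean and SD of each group (n = 3). The PARP1 libraries of both other groups sit below the WT CDK9 libraries, which lie between 302 and 307 CPM. Single libraries set much of the spread of some groups for PARP1, PARP2, PARP3, PARG, LIG3, POLB and TDP1.

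PARP2 and PARP3 did not pass a test in any comparison. PARP2 was at 36.9, 45.6 and 38.2 CPM in WT CDK9 cells, at 39.0, 35.9 and 38.2 CPM after the inhibitor and at 41.3, 42.8 and 41.7 CPM in Tyr19Phe CDK9 cells. All Tyr19Phe libraries were above all inhibitor-treated ones, with a log2 difference of 0.15 (interval -0.03 to 0.33, edgeR adjusted p = 0.239), and both groups overlapped the WT CDK9 libraries, the Tyr19Phe group only through WT replicate 2. PARP3 was at 18.1, 18.0 and 15.8 CPM in WT CDK9 cells, at 20.7, 20.9 and 16.3 CPM after the inhibitor and at 19.4, 17.1 and 16.4 CPM in Tyr19Phe CDK9 cells. Its groups overlapped in all 3 comparisons, and its log2 fold change after the inhibitor, 0.16 (SE 0.13, interval -0.10 to 0.42), was the highest of the 9 genes in that comparison.

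PARG, the main enzyme that degrades poly(ADP-ribose), was at 41.5, 39.7 and 44.0 CPM in WT CDK9 cells and at 42.6, 42.8 and 43.5 CPM after the inhibitor. In Tyr19Phe CDK9 cells it was at 53.1, 44.7 and 43.0 CPM, so that replicate 1 stood above every other library and the groups overlapped. The log2 fold change against WT CDK9 cells was 0.17 (SE 0.08, interval 0.00 to 0.34), with an unadjusted p of 0.0539 and an edgeR adjusted p of 0.181, and was 0.07 without Y19F replicate 1. After the inhibitor it was 0.04 (interval -0.13 to 0.22, edgeR adjusted p = 0.896).

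As PARG and PARP1 act in opposite directions on the same chains, the ratio of their levels per kb was also compared. PARG was at 0.191, 0.184 and 0.201 of the PARP1 level in WT CDK9 cells, at 0.214, 0.200 and 0.219 after the inhibitor and at 0.282, 0.219 and 0.211 in Tyr19Phe CDK9 cells. All Tyr19Phe libraries were above all WT CDK9 libraries. The log2 ratio was 0.29 higher in Tyr19Phe than in WT CDK9 cells, with an exact two-sided permutation p of 0.1, the smallest that 3 libraries against 3 allow, and 0.16 higher without Y19F replicate 1. Against the inhibitor the same ratio overlapped (difference 0.16, exact permutation p = 0.5). The PARP2 to PARP1 ratio was 0.19 higher (log2) in Tyr19Phe than in inhibitor-treated cells without overlap (exact permutation p = 0.1), and overlapped in both comparisons with WT CDK9 cells. Of 9 such comparisons over 3 ratios these were the 2 without overlap, and none could reach 0.05.

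XRCC1, LIG3, POLB and APEX1 also passed no test. XRCC1 was at 33.2, 31.6 and 31.4 CPM in WT CDK9 cells, at 32.3, 33.6 and 31.9 CPM after the inhibitor and at 33.8, 35.1 and 30.7 CPM in Tyr19Phe CDK9 cells. Its groups overlapped throughout, and with a ratio of 1.14 between its highest and lowest library it was among the steadiest of the 9 genes, next to APEX1 with a ratio of 1.12. LIG3 was at 48.8, 45.9 and 47.3 CPM in WT CDK9 cells, at 45.9, 44.2 and 46.7 CPM after the inhibitor and at 45.4, 44.3 and 55.8 CPM in Tyr19Phe CDK9 cells. The third Tyr19Phe library was above every other one and the other two were below all WT CDK9 libraries, so that the log2 fold change of 0.03 turned to -0.07 without it.

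APEX1, the main abasic site endonuclease, was at 139, 146 and 142 CPM in WT CDK9 cells, at 132, 134 and 142 CPM after the inhibitor and at 142, 148 and 140 CPM in Tyr19Phe CDK9 cells. Its intervals were narrow, with log2 fold changes of -0.07 (interval -0.17 to 0.04) after the inhibitor and 0.01 (-0.09 to 0.12) in Tyr19Phe CDK9 cells. OSGEP, which starts on the far side of the 85-base interval shown above, had log2 fold changes of 0.00 and 0.09 (SE 0.10 each). POLB, on chromosome 8 (42338454 to 42371808), was at 14.3, 17.0 and 13.6 CPM in WT CDK9 cells, at 15.9, 14.9 and 16.6 CPM after the inhibitor and at 14.2, 14.5 and 14.3 CPM in Tyr19Phe CDK9 cells. Its Tyr19Phe libraries were all below the inhibitor-treated ones, with a log2 difference of -0.14 (interval -0.40 to 0.12, edgeR adjusted p = 0.494), and it had the lowest counts of the 9 genes, 254 to 418 per library.

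TDP1 was at 31.5, 36.2 and 30.8 CPM in WT CDK9 cells, at 30.9, 26.3 and 31.9 CPM after the inhibitor and at 30.2, 29.2 and 30.4 CPM in Tyr19Phe CDK9 cells. All Tyr19Phe libraries were below all WT CDK9 libraries, with a log2 fold change of -0.13 (SE 0.10, interval -0.33 to 0.07, edgeR adjusted p = 0.412). The inhibitor-treated libraries overlapped the WT CDK9 libraries, with a log2 fold change of -0.14 (SE 0.10, edgeR adjusted p = 0.571) that was -0.06 without Ai replicate 2.

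Over the 9 genes, the ALK inhibitor comparison gave 0 calls by edgeR's quasi-likelihood test and 0 by DESeq2, with 1 gene, PARP1, at an unadjusted p under 0.05, beside 4.55% of all tested genes called (2.73% lower and 1.82% higher) and 15.1% at that unadjusted p. The log2 fold changes ran from -0.14 (TDP1) to 0.16 (PARP3) with a median of -0.06, against -0.001 over all tested genes. The Tyr19Phe comparison gave 1 call by either tool, PARP1, beside 18.0% of all tested genes, and PARP1 was also the only one at an unadjusted p under 0.05, beside 29.0%. It had log2 fold changes from -0.13 to 0.17 and a median of 0.03 against 0.003. Libraries of the groups did not overlap for 1 gene after the inhibitor (PARP1) and for 2 in Tyr19Phe CDK9 cells (PARP1 and TDP1), lower in each case, beside 10.3% and 17.2% of all tested genes that were lower without overlap, 9.31% and 15.4% that were higher, and 19.6% and 32.6% either way. Between Tyr19Phe and inhibitor-treated cells 0 of 9 were called by edgeR and 0 by DESeq2, with 0 at an unadjusted p under 0.05, beside 20.7% of all tested genes called (11.1% lower and 9.57% higher) and 31.5% at that unadjusted p. PARP2 was higher and POLB lower without overlap, beside 16.7% and 17.7% of tested genes, and 34.4% either way. The 95% intervals of the 9 genes lay within -21.2% and 33.7% of the WT CDK9 level after the inhibitor and within -20.4% and 26.9% in Tyr19Phe CDK9 cells.

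**Figure D3:**
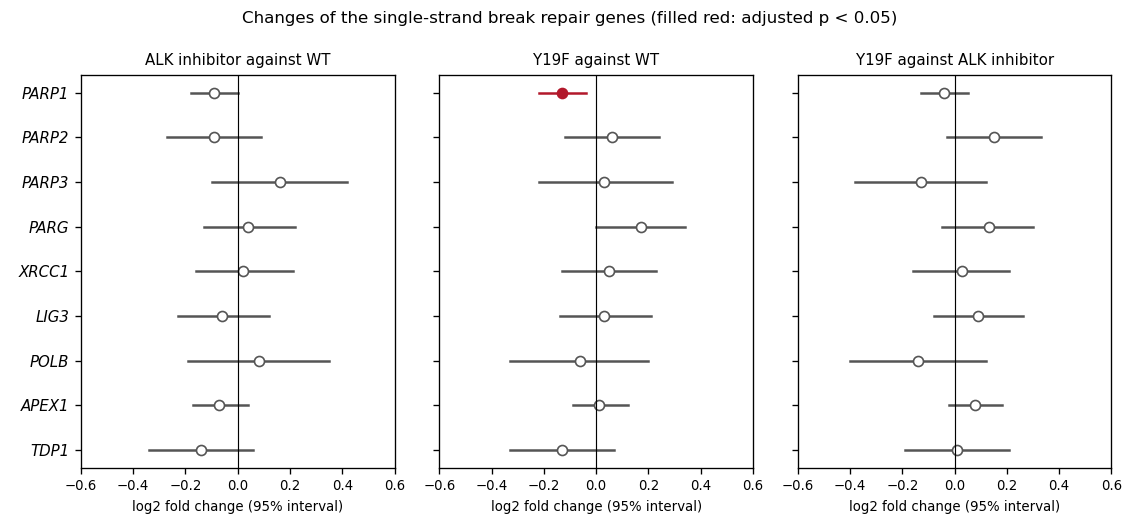
Log2 fold changes with 95% intervals (edgeR, 9 libraries) of the 9 genes in the 3 comparisons, with filled red for an adjusted p under 0.05. PARP1 in Tyr19Phe against WT CDK9 cells, at -0.13, is the only filled point, and every interval lies between -0.40 and 0.42.

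The medians of the genes around TDP1 and PARG lay away from 0 in Tyr19Phe against WT CDK9 cells. In that comparison 10.4% of all tested genes were called lower and 7.61% higher. Around TDP1, the median log2 fold change of the 48 other tested genes within 5 Mb on either side was -0.20, with 15 called lower and 0 higher. TDP1 itself was at -0.13. Around PARG, 52 genes had a median of 0.23 with 8 called higher and 0 lower, beside 0.17 for PARG. Around PARP1, 83 genes had a median of -0.01 with 5 called lower and 6 higher, beside -0.13 for PARP1. The medians around the other 6 genes lay between -0.05 and 0.08, with PARP2 and APEX1 in 1 shared stretch of 91 genes. After the ALK inhibitor, in cells with the same CDK9 construct, the medians were 0.05 around PARP1, 0.00 around TDP1 and -0.14 around PARG, where 7 genes were called lower and 0 higher. Over all tested genes 2.73% were called lower and 1.82% higher after the inhibitor. The part of these stretches in the values of TDP1 and PARG was not tested.

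**Figure D4:**
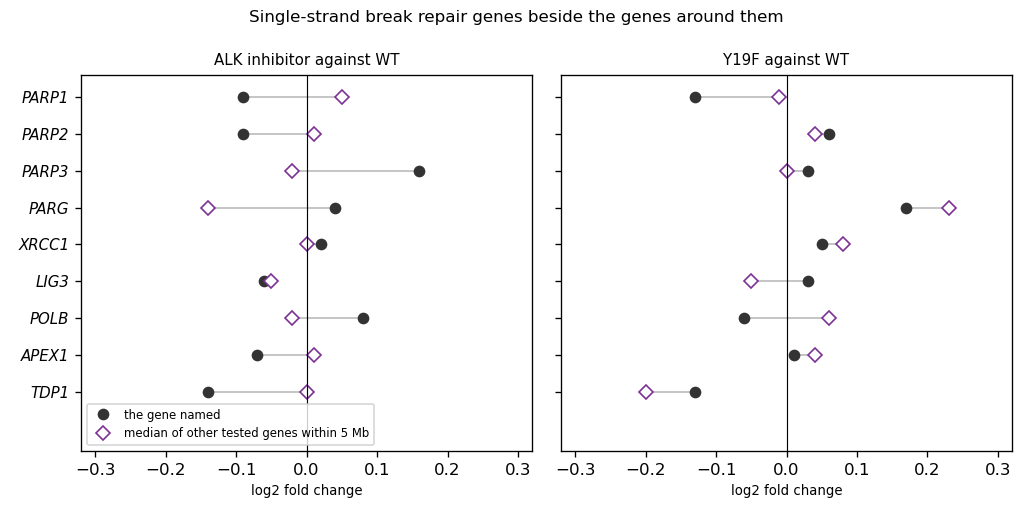
Log2 fold change of each of the 9 genes (filled circles) and the median over the other tested genes within 5 Mb on either side (open diamonds), after the ALK inhibitor (left) and in Tyr19Phe CDK9 cells (right), both against WT CDK9 cells. In Tyr19Phe CDK9 cells the medians around PARG (0.23) and TDP1 (-0.20) lie farther from 0 than the genes themselves, and the median around PARP1 (-0.01) lies near 0.

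Some of the 9 genes share their place with another gene, and the sources used here do not say whether reads were counted by strand. PARG overlaps TIMM23B, a subunit of the mitochondrial import channel on the opposite strand, over 18.5% of its span. TIMM23B had log2 fold changes of 0.31 (SE 0.15, edgeR adjusted p = 0.182) in Tyr19Phe against WT CDK9 cells and of 0.43 (edgeR adjusted p = 0.0462) against inhibitor-treated cells, and 161 to 350 counts per library beside 752 to 1567 for PARG. LIG3 overlaps RFFL over 12.8% of its span and CCT6B over 2%, and XRCC1 overlaps PINLYP over 9.81%, with none of these 3 genes called in any comparison. A second gene model on the strand of XRCC1, L34079.1, covers 68.9% of its span and was listed with 0 counts in every library. APEX1 and PIP4P1 share 54 bases.

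Among the other genes of the PARP and ADP-ribosyltransferase family, 0 of 13 tested were called after the ALK inhibitor by edgeR or DESeq2. At an unadjusted p under 0.05 there were 3, all higher (PARP14, TNKS and PARP4), and the median log2 fold change was 0.11. Of all tested genes, 4.55% were called by edgeR in that comparison and 15.1% had such an unadjusted p. In Tyr19Phe against WT CDK9 cells 1 of 13 was called, beside 18.0% of all tested genes. It was PARP10, which modifies proteins with single ADP-ribose units, at 26.6 ± 0.297 CPM against 21.2 ± 3.23 CPM (log2 fold change 0.32, SE 0.11, edgeR adjusted p = 0.0413). This call was lost in 5 of 6 fits that left out 1 library, with adjusted p-values up to 0.26 without WT replicate 3, and held without WT replicate 1. Tyr19Phe and inhibitor-treated cells differed in 3 of the 13, all lower in Tyr19Phe CDK9 cells. Of all tested genes 20.7% were called there, 11.1% lower and 9.57% higher. PARP14, which adds single ADP-ribose units, was at 67.7 ± 6.34 against 84.6 ± 3.63 CPM (log2 difference -0.32, SE 0.07, edgeR adjusted p = 0.000914), and TNKS, tankyrase, at 61.7 ± 2.65 against 75.6 ± 4.15 CPM (-0.29, SE 0.07, edgeR adjusted p = 0.0017). TNKS2, the second tankyrase, followed at -0.23 (edgeR adjusted p = 0.0274), a call lost without Ai replicate 2 (0.226), Y19F replicate 2 or Y19F replicate 3. WT CDK9 cells lay between the other groups for all 3 genes, at 74.4, 67.3 and 66.9 CPM, and neither group differed from them past the threshold.

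A list of cofactors, readers and removal enzymes of ADP-ribose, and relatives of these, held 12 tested genes. After the inhibitor 0 of them were called by edgeR or DESeq2. At an unadjusted p under 0.05 there was 1, ADPRS, which removes ADP-ribose from serine and was deposited as ADPRHL2. The shares of all tested genes were 4.55% called by edgeR and 15.1% at that unadjusted p. In Tyr19Phe against WT CDK9 cells 3 were lower and 1 higher, beside 10.4% and 7.61% of all tested genes. MACROD2, which removes the last ADP-ribose, fell to 20.4 ± 2.05 from 27.9 ± 1.58 CPM (log2 fold change -0.45, SE 0.10, edgeR adjusted p = 0.0021), and TIMELESS, a replication fork protein that binds PARP1, fell to 253 ± 6.99 from 282 ± 1.77 CPM (-0.16, edgeR adjusted p = 0.00561). Both kept their call without any single library. HPF1, the cofactor that directs PARP1 and PARP2 to serine, fell to 23.4 ± 1.09 from 28.5 ± 2.34 CPM (-0.28, SE 0.10, edgeR adjusted p = 0.0445). HPF1 lost its call against WT CDK9 cells in 5 of 6 fits that left out 1 library (adjusted p up to 0.198 without WT replicate 1), was lower than in inhibitor-treated cells in all 6 (log2 difference -0.37, edgeR adjusted p = 0.00701), and lies in a stretch of 27 genes with a median of -0.14 against WT CDK9 cells, 9 of them called lower and 1 higher. CHFR, a ubiquitin ligase that binds the chains, rose by 0.23 (edgeR adjusted p = 0.0418), with overlapping libraries and a call lost in 4 of 6 such fits (up to 0.226 without Y19F replicate 3). Leaving out 1 library at a time gave 2 to 4 calls in this list against WT CDK9 cells, 2 of them without WT replicate 1, WT replicate 3, Y19F replicate 2 or Y19F replicate 3. Between Tyr19Phe and inhibitor-treated cells 3 of the 12 were called lower (HPF1, MACROD2 and TIMELESS) and 2 higher (CHFR and ADPRS). Over all tested genes 11.1% were called lower and 9.57% higher there. Without 1 library at a time MACROD2 kept this call in 5 of 6 fits, CHFR in 4 and ADPRS in 2.

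Among the 11 DNA glycosylases, which remove damaged bases ahead of APEX1, 0 were called after the inhibitor by edgeR or DESeq2 and 0 had an unadjusted p under 0.05. By edgeR these shares were 4.55% and 15.1% of all tested genes. TDG, which excises mismatched thymine and oxidised forms of methylcytosine, was the only one called in Tyr19Phe against WT CDK9 cells, beside 18.0% of all tested genes. It was at 32.6, 30.1 and 31.4 CPM there, at 38.6, 33.1 and 42.9 CPM in WT CDK9 cells and at 40.5, 44.7 and 39.9 CPM after the inhibitor. Against WT CDK9 cells TDG fell by 0.28 (log2, SE 0.09, edgeR adjusted p = 0.0306), a call kept in 2 of 6 fits that left out 1 library and lost with adjusted p-values up to 0.251 without WT replicate 3. Against inhibitor-treated cells it was lower by 0.41 on the log2 scale (fitted difference -0.41, edgeR adjusted p = 0.00139), and this call held in all 6.

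Of 23 tested genes of end processing, gap filling and ligation, 2 were lower and 0 higher after the inhibitor, beside 2.73% and 1.82% of all tested genes. POLE, the catalytic subunit of the leading-strand polymerase, fell by 0.21 (log2, SE 0.04, edgeR adjusted p = 0.00339, 0.0556 without WT replicate 3), and PCNA, the sliding clamp, by 0.17 (SE 0.05, edgeR adjusted p = 0.021, lost in 4 of 6 fits that left out 1 library, up to 0.152 without Ai replicate 1). In Tyr19Phe against WT CDK9 cells 2 were lower and 2 higher, beside 10.4% and 7.61% of all tested genes. RFC1, the large subunit of the clamp loader, fell from 151 ± 4.37 to 117 ± 3.96 CPM (log2 fold change -0.37, SE 0.05, edgeR adjusted p = 5.31e-05 at most when 1 library was left out), and the 32 genes around it had a median of -0.27 with 17 called lower and 0 higher. PCNA fell by 0.22 (log2, SE 0.05, edgeR adjusted p = 0.000627). POLD4, the small subunit of polymerase delta, rose by 1.06 (log2, SE 0.27, edgeR adjusted p = 0.00429), from 4.10, 3.27 and 2.19 to 4.37, 6.51 and 9.09 CPM, and lost its call without Y19F replicate 3 (0.0674). FEN1, the flap endonuclease of long-patch repair, rose by 0.16 (edgeR adjusted p = 0.0267, called in 3 of 6 fits that left out 1 library, up to 0.159 without Y19F replicate 2). The list's number of calls ran from 3 to 6 in those fits, with 6 without WT replicate 2.

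NAD supply and use, from which the chains are built, held 1 lower gene of 13 tested after the inhibitor and 1 lower in Tyr19Phe CDK9 cells. Lower calls made up 2.73% and 10.4% of all tested genes in these comparisons. NNMT, which consumes nicotinamide, fell from 267 ± 2.03 to 226 ± 4.79 CPM after the inhibitor (log2 fold change -0.24, SE 0.04, edgeR adjusted p = 0.000249) and was at 285 ± 7.69 CPM in Tyr19Phe CDK9 cells, a difference between those groups of 0.33 (SE 0.04, edgeR adjusted p = 2.89e-07) that held without any single library. NAMPT, the rate-limiting enzyme that recycles nicotinamide to NAD, was at 81.2 ± 6.83 against 95.8 ± 5.88 CPM in Tyr19Phe against WT CDK9 cells (-0.24, SE 0.06, edgeR adjusted p = 0.00817), a call lost without WT replicate 2, Y19F replicate 2 (0.0795) or Y19F replicate 3. Between Tyr19Phe and inhibitor-treated cells 1 of the 13 was called lower (NAMPT) and 3 higher (NNMT, NMNAT2 and NADK). Over all tested genes 11.1% were called lower and 9.57% higher there. Without 1 library at a time NMNAT2 kept this call in 2 of 6 fits, and NAMPT and NADK in 1 each.

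PCNA and FEN1 are also among 20 genes of S phase, all of them tested. After the inhibitor 5 were lower and 0 higher, beside 2.73% of all tested genes lower and 1.82% higher, with a median log2 fold change of -0.07, led by MCM3 (-0.21, edgeR adjusted p = 0.00485), TYMS (-0.30, 0.0112) and PCNA. The number called fell to 0 without WT replicate 2, to 2 without Ai replicate 1 or Ai replicate 2, and to 3 without any of the other 3. In Tyr19Phe against WT CDK9 cells 4 were lower and 4 higher, beside 10.4% and 7.61% of all tested genes, with a median of -0.01, among them MCM5 (0.32, edgeR adjusted p = 2.38e-05), in a stretch of 109 genes with a median of 0.20, and RRM2 (-0.19, edgeR adjusted p = 0.00312). Without 1 library the number ran from 5 to 7, with 5 without WT replicate 1, WT replicate 3 or Y19F replicate 2. Between Tyr19Phe and inhibitor-treated cells 0 were lower and 7 higher, beside 11.1% and 9.57% of all tested genes, with a median of 0.06, and 6 to 8 were called without 1 library. TYMS (0.52, edgeR adjusted p = 1.31e-06), MCM5 (0.42, 1.57e-07) and E2F1 (0.26, 0.000579) kept their call without any single library. The part of S phase in the values of PARP1 and the other 8 genes was not tested.

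**Figure D5:**
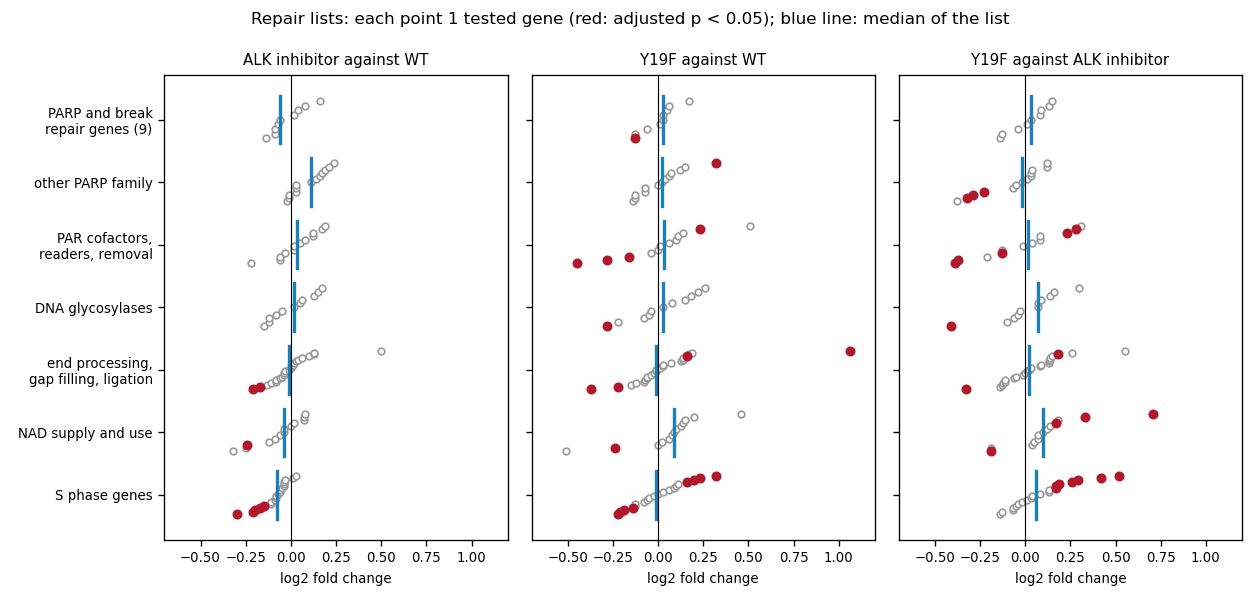
Log2 fold change of each tested gene of 7 lists in the 3 comparisons, with red for an adjusted p under 0.05 (edgeR) and a blue line at the median of the list. In both comparisons with WT CDK9 cells the medians lie between -0.07 and 0.11, and red points lie on both sides of 0 in Tyr19Phe CDK9 cells, where 4 S phase genes were lower and 4 higher.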

How the data were processed

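The labels gave each library's group and replicate number. The authors deposited raw counts of reads per gene, mapped to hg38. Per the labels, the submitters' processing notes name CASAVA, HISAT2 2.0.5 and featureCounts 1.5.0-p3, and the annotation release and strandedness are not given in the sources used here. They were tested with edgeR 4.0.16 in R 4.3.3 (TMM, filterByExpr with a minimum of 10 counts and 15 in total, quasi-likelihood test on all 9 libraries, 6 residual degrees of freedom, Benjamini-Hochberg adjustment over 16350 genes, threshold 0.05) and, as an alternative, DESeq2 1.42.0. Log2 CPM used a prior count of 2. Levels per kb were CPM divided by the deposited gene length. Ratios used exact permutation tests. Figures were drawn with matplotlib 3.10.9 in Python 3.11.15. Code was tested on simulated data.

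The genes and lists were chosen with earlier results of these data known. Named were all 9 genes, per list and comparison the 3 genes of smallest adjusted p, where a result turned on them, the 3 genes most like PARP1, and overlapping genes. Other list genes named were chosen after their values were seen. Of 94 list genes, 93 were matched in the table and 90 tested (ADPRS under its older symbol, XRCC6BP1 unmatched). Replicate libraries differed by more than counting noise, so intervals and tests rest on the spread between libraries. Alternatives were other scalings, filters, thresholds, DESeq2, a replicate block and each library left out in turn. Calls of list genes without each library were added after the data were seen.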

Additional observations from a re-analysis of the deposited data

How the results depend on the processing

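For the 9 genes and 3 comparisons, the number called kept its value under scaling by DESeq2's size factors, DESeq2, a filter of 10 counts in each library, protein-coding genes alone and a fit of only the compared groups. PARP1 in Tyr19Phe against WT CDK9 cells was lost, leaving 0 called, with upper quartile scaling (edgeR adjusted p = 0.0889), with library size alone (0.101), with no filter (0.0643) and at an adjusted p under 0.01. Leaving out 1 library at a time gave 0 to 1 called. After the inhibitor 1 was called at an unadjusted p under 0.05. The count of all tested genes called was 427, 1850 and 2088 at an adjusted p under 0.01 and 2473, 4739 and 5145 at an unadjusted p under 0.05, after the inhibitor, in Tyr19Phe CDK9 cells and between those groups, and fell to 491 after the inhibitor without WT replicate 1. Scaling moved the median of all tested genes by at most 0.03 (log2).

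Log2 fold changes turned sign only where they had not been called, and each time when 1 library was left out. After the inhibitor PARP2 ran from -0.149 to 0.0108. In Tyr19Phe against WT CDK9 cells POLB ran from -0.123 to 0.0439, PARP3 from -0.0415 to 0.0867, APEX1 from -0.006 to 0.0374 and LIG3 from -0.0716 to 0.0983. Between Tyr19Phe and inhibitor-treated cells PARP1 ran from -0.0558 to 0.000199, TDP1 from -0.0669 to 0.0656, XRCC1 from -0.0122 to 0.083 and LIG3 from -0.0191 to 0.151. The log2 LIG3 to XRCC1 ratio ran from -0.181 to 0.0803 in Tyr19Phe against WT CDK9 cells and from -0.102 to 0.16 against the inhibitor, and the PARP2 to PARP1 ratio after the inhibitor from -0.0523 to 0.104. With 2 Mb in place of 5 Mb, the median around PARG after the inhibitor was -0.0466, that around APEX1 0.0703, and that around PARP1 in Tyr19Phe CDK9 cells 0.042; the median around POLB after the inhibitor turned from -0.02 to 0.05, and that around PARP2 and APEX1 in Tyr19Phe CDK9 cells from 0.04 to -0.01. The cause was not tested.

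Same-numbered libraries of different groups did not deviate together (correlations -0.0116 to 0.026), so the counts gave no sign of pairing by replicate number. The labels do not say whether same-numbered libraries were handled together, and these correlations cannot decide it. With the replicate number as a block, PARP1 in Tyr19Phe against WT CDK9 cells had a log2 fold change of -0.129 (edgeR adjusted p = 0.0245), 0, 1 and 0 of the 9 genes were called, and 818, 3076 and 3465 of all genes.

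Depth limits POLB and PARP3 most, with 254 to 574 counts per library.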
